A study of Mus musculus with 12 samples.

Results

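The sialyltransferases are the Golgi enzymes that cap the glycans of glycoproteins and glycolipids with sialic acid. They move sialic acid from its activated donor, CMP-sialic acid, to a galactose, a GalNAc or another sialic acid at the end of a sugar chain. In the ST3Gal and ST6Gal groups the acceptor is galactose, in the ST6GalNAc group it is mostly GalNAc, and in the ST8Sia group it is a sialic acid already in place. On neutrophils, capped chains serve as ligands of selectins and siglecs, and a chain that lacks its cap ends in galactose, which is called an asialoglycan. The study asked whether glycans of this kind mark living neutrophils for removal by macrophages through calreticulin, so RNA of the capping enzymes bears on how the chains could be made. RNA says nothing on enzyme activity or on the sialic acid of the cell surface.

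10 sialyltransferase genes were taken from the deposited expression table by symbol, among 28987 genes: St3gal1, St3gal2, St3gal3, St3gal4, St3gal5, St3gal6, St6gal1, St6galnac4, St6galnac6 and St8sia4. The symbols chose them and no measured value did. RNA was sequenced from 12 libraries of sorted cells, 3 in each of 4 groups, from mice of the fvb strain. Each mouse received 2 mL of thioglycollate in the peritoneum, a sterile irritant that draws neutrophils from the marrow, so the marrow groups are marrow of inflamed mice and not of resting ones. The groups were wild type marrow (BM WT), wild type peritoneal cells (PT WT), and marrow and peritoneal cells of mice labelled MRP8/BCL2+ (BM Bcl2 and PT Bcl2). The MRP8-Bcl2 transgene drives human Bcl2, an inhibitor of apoptosis, from human regulatory regions of MRP8, which act in cells of the myeloid lineage. The labels give harvest at 6 h, whereas the methods of the study give 4 or 8 h. No age was given. Both sites were sampled in every animal by the methods, but no label ties a library to its mouse. The replicate p-values therefore measure the spread between libraries.

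Neutrophil markers were found in all 12 libraries, although the sample source was entered as macrophages. 8 marker genes summed to at least 15009 TPM (a level that is scaled for transcript length and library total) in each. The sum was 76081 to 332390 TPM in marrow and 15009 to 68301 TPM in peritoneum. S100a8 and S100a9 had by far the highest means of the 8, at 53973 and 63866 TPM over the 12 libraries. Csf3r was next at 1523 TPM. Ly6g was above 0 in 11 of the 12 libraries, and its lowest PT WT value was 0. It averaged 971 TPM in BM WT and 9.36 TPM in PT WT, and 493 TPM in BM Bcl2 and 81.7 TPM in PT Bcl2. Csf3r, Cxcr2 and Itgam went the other way, with higher means in peritoneum in both genotypes. 10 immature neutrophil genes summed to 19288 to 54490 TPM in marrow and 403 to 1265 TPM in peritoneum. 10 macrophage genes summed to 15.6 to 141 TPM, and all 10 were above 0 in at least 1 library. 6 B cell genes summed to 32.9 to 268 TPM in marrow and 239 to 1432 TPM in peritoneum, where Ighm alone was at 204 to 1202 TPM. Erythroid genes summed to 26.4 to 964 TPM in marrow and 0 to 9.26 TPM in peritoneum, and T cell genes to 22.6 to 215 TPM over all libraries. The values listed for mouse Bcl2 lay at 0.219 to 2.37 TPM in the WT libraries and at 58.6 to 333 TPM in 5 of the 6 Bcl2 libraries. The library labelled PT Bcl2 library 9, however, had 0.695 TPM. How reads of the human transgene were assigned to the mouse gene was not tested. PT WT library 12 held 628 TPM of 5 mast cell genes, mainly Cpa3 at 481 TPM, against 4.91 to 90.1 TPM in the other 11 libraries. In bulk RNA of this kind, fewer cells of a type and less RNA per cell cannot be told apart. The table gave no counts, but the steps between low values placed 1 read on a transcript of 1000 effective nucleotides at 0.323 to 1.11 TPM in BM WT, 0.255 to 0.336 TPM in PT WT, 0.669 to 1.20 TPM in BM Bcl2 and 0.49 to 0.80 TPM in PT Bcl2, a lower value meaning a deeper library.

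St3gal6 (chr16:58468125-58524243, minus strand, GRCm38) was the member that rose in the peritoneum in both genotypes. It makes the same capped galactose on GlcNAc as St3gal4, and both enzymes are known for the selectin ligands of leukocytes. In BM WT its level was 1.90, 72.3 and 50.8 TPM (libraries 4, 5 and 6), while PT WT held 269.6, 244 and 704 TPM (libraries 10, 11 and 12). In BM Bcl2 it was 27.4, 9.04 and 9.79 TPM (libraries 1, 2 and 3), and in PT Bcl2 542, 162 and 273 TPM (libraries 7, 8 and 9). All 6 peritoneal libraries lay above all 6 marrow libraries, and the lowest marrow value was library 4.

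The upstream sequences of the St3gal6 start sites are shown because the gene carries the main difference. RefSeq (GRCm38.p6) lists 2 starts on the minus strand of chromosome 16, and for each the 250 bases before the start are given 5′ to 3′. Capitals mark matches to 7 searched motifs on either strand: TTGCNNAA for the C/EBP factors of granulocytes, GAGGAA for the myeloid factor PU.1, TGANTCA for AP-1, TGACGTCA for the cyclic AMP response element (CRE), GGGCGG for the GC box of housekeeping promoters, TATAAA for the TATA box, and the CCAAT box by the letters of its name.
St3gal6 start 1 (chr16:58524254-58524503): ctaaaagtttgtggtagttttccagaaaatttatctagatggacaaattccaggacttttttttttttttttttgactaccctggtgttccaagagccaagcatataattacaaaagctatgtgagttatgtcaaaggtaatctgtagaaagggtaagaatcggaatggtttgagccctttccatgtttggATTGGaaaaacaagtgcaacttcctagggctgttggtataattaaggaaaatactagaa
St3gal6 start 2 (chr16:58523427-58523676): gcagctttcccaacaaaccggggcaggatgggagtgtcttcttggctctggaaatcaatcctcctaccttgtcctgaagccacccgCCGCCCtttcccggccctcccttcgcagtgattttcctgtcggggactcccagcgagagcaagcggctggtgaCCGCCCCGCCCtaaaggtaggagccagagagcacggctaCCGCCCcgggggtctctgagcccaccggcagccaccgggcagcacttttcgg
The first window held 1 CCAAT box, at -59 to -55 from the start, and the second held 4 GC boxes, of which the pair at -91 and -86 overlap by 1 base. Among 32851 RefSeq promoter windows of the same length, 33.8% held a CCAAT box and 32.7% a GC box, so neither is rare. No letters of the other 5 motifs were found in these windows, and those were held by 9.6% (C/EBP), 23.3% (PU.1), 6.7% (AP-1), 1.5% (CRE) and 12.4% (TATA box) of the windows. The 30 bases after the second start were found in 2 of the GENCODE transcripts of St3gal6. Those after the first were in none. The first start lies just outside the GENCODE gene, which ends at 58524243, so a whole match was not possible there. The table of levels adds all transcripts of a gene, so it does not show which start was used. Entries were found for 8 of the 10 members.

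limma was fitted on log2(TPM + 1) for the 13456 genes that reached 1 TPM in 3 or more of the libraries, and all 12 libraries entered 1 fit. A gene was called at an adjusted p under 0.05 (Benjamini-Hochberg over all 13456 genes) and a change of at least 2-fold. 9 of the 10 members were tested. St3gal3 did not pass the filter on low values. Changes are given as log2(TPM + 1), peritoneum minus marrow unless stated, and for low genes they are smaller than the true fold. St3gal6 rose by 4.02 in WT (SE 0.98, limma adjusted p = 0.0407), and the rise with the transgene was 4.31 (SE 0.98, adjusted p = 0.00854). Over both genotypes, the mean of the same comparisons, it rose by 4.17 (SE 0.69, 95% interval 2.69 to 5.65, adjusted p = 0.00106).

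The WT call of St3gal6 was the less firm. It was lost under 8 of 10 other settings with the change at 3.54 to 4.21, and without each of the libraries 2, 4, 6, 9, 10, 11 and 12, where the change ran from 2.55 without library 4 to 4.63 without library 6, while the Bcl2 call held in each of the 12 fits without a library (3.86 to 4.80). Across the 6 marrow libraries, St3gal6 was highest where Mpo, a primary granule gene of the immature list chosen after its values were seen, was lowest. Mpo was at 263 and 622 TPM in libraries 5 and 6, at 1003 TPM in library 1, and at 1744, 1874 and 3698 TPM in libraries 4, 2 and 3, in which St3gal6 was under 10 TPM. The summed immature list did not follow this order, since library 3 had the lowest marrow sum (19288 TPM), below libraries 5 and 6 (25653 and 29557 TPM). The part of maturity in the marrow levels was not tested. In the peritoneum Mpo was 4.06 to 17.2 TPM.

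**Figure D1:**
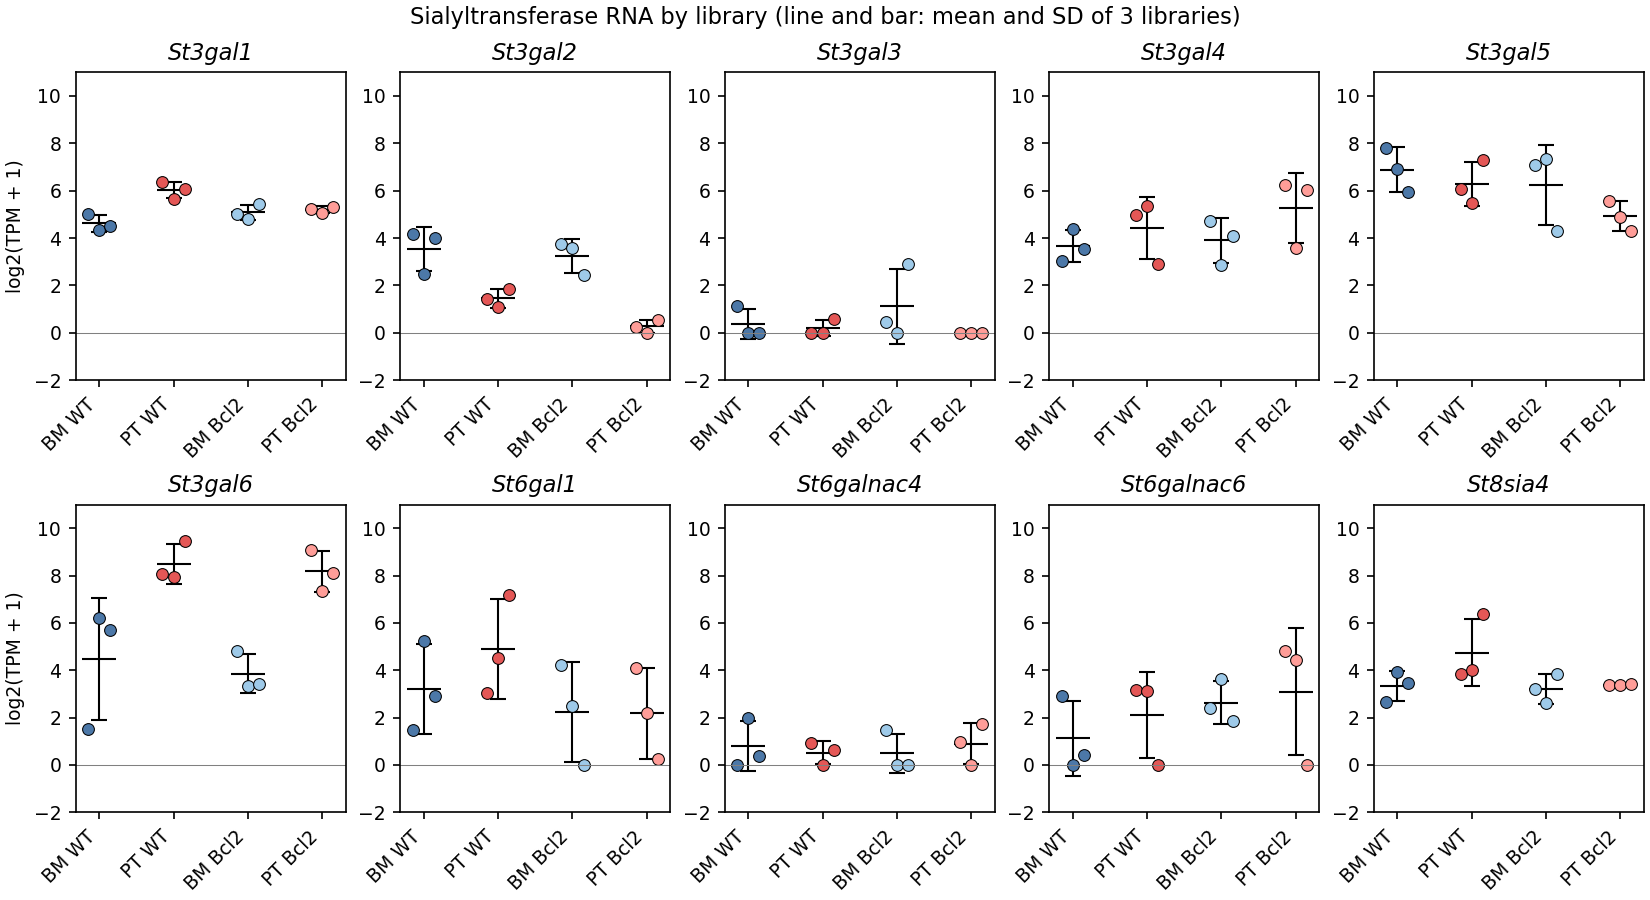
log2(TPM + 1) of the 10 sialyltransferases in each library (points, in order of library number within a group), with the mean and SD of the 3 libraries of a group (line and bar). St3gal6 lies higher in every peritoneal library than in every marrow library, St3gal2 lies lower, and St6gal1 and St8sia4 reach their highest value in PT WT library 12.

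St3gal2 (chr8:110919922-110972480, plus strand, GRCm38) fell in the peritoneum in MRP8-Bcl2 and over both genotypes. It adds sialic acid to the Gal-GalNAc end of gangliosides, as in the step from GM1 to GD1a, and to mucin type O-glycans. In BM WT it lay at 16.9, 4.50 and 15.1 TPM and in PT WT at 1.65, 1.13 and 2.64 TPM. In BM Bcl2 it lay at 12.5, 10.9 and 4.35 TPM, and in PT Bcl2 at 0.191 and 0.467 TPM with library 8 listed at 0. The 6 peritoneal libraries all lay below the 6 marrow libraries. On the longest transcript these levels amounted to 15.0 to 193 reads in marrow, 13.9 to 33.9 in PT WT and 0 to 3.93 in PT Bcl2, so the PT Bcl2 values rest on a handful of reads. The gene fell by 2.98 in MRP8-Bcl2 (SE 0.73, limma adjusted p = 0.0121). It fell by 2.53 over both genotypes (SE 0.51, adjusted p = 0.0039). In WT alone the value was -2.09 (SE 0.73), short of the threshold at an adjusted p of 0.149.

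The call in MRP8-Bcl2 depended on how libraries were scaled. The median change of all tested genes was -1.02 in MRP8-Bcl2, 0.22 in WT and -0.40 over both, so the deposited scale holds a general downward shift in the Bcl2 comparison. Centring moved the median of all tested genes in MRP8-Bcl2 to 0.57, a shift upward. With each library centred on its median, St3gal2 was at -1.39 in MRP8-Bcl2 (adjusted p = 0.196), and with quantile normalization at -1.60 (adjusted p = 0.169), neither of them a call. Over both genotypes it fell under each scaling, by 1.85 (adjusted p = 0.0224) and by 1.98 (adjusted p = 0.0183). With centring St3gal6 was at 5.90 in MRP8-Bcl2 (adjusted p = 0.00581) and at 3.80 in WT (adjusted p = 0.0929).

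**Figure D2:**
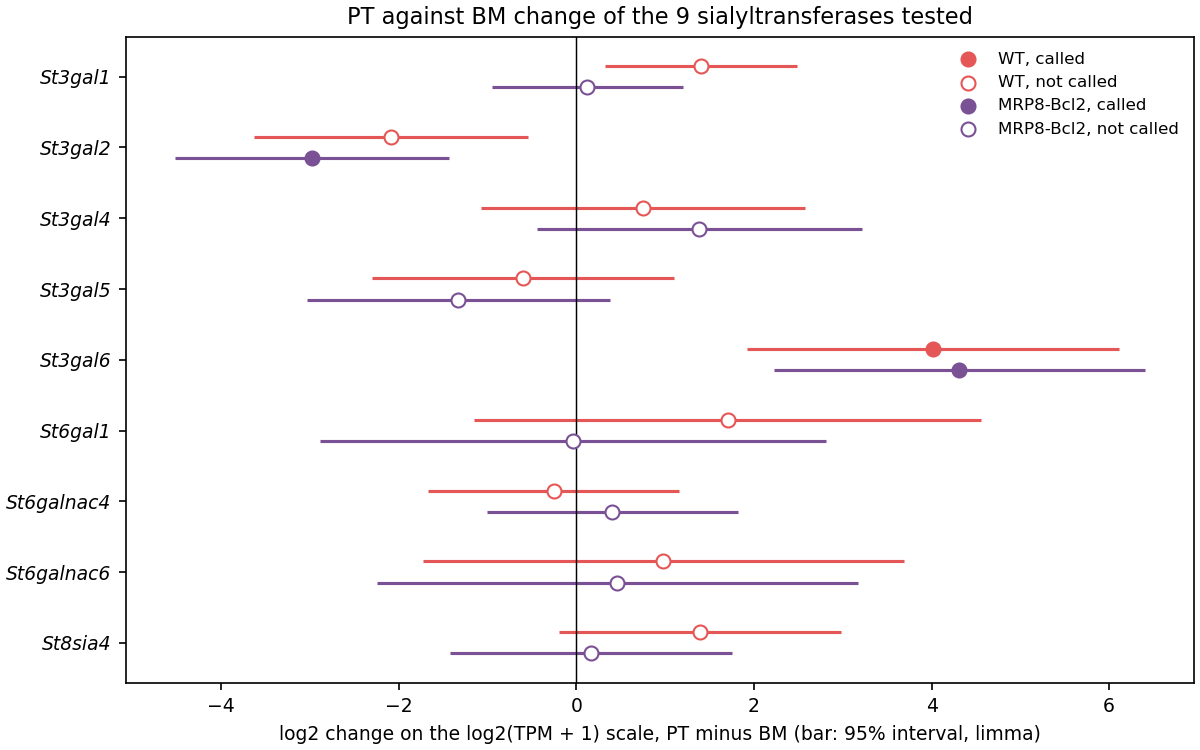
Change on the log2(TPM + 1) scale, peritoneum minus marrow, of the 9 tested members in WT and MRP8-Bcl2, with 95% intervals from limma; filled points passed the threshold. St3gal6 was called in both genotypes (4.02 and 4.31), St3gal2 in MRP8-Bcl2 (-2.98), and the intervals of most other members span 0.

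Read against all genes, 1 of 9 members was called higher and 0 lower in WT, where 1.59% of all tested genes were called higher and 1.22% lower. In MRP8-Bcl2, 1 member was called higher and 1 lower, beside 2.31% and 19.1% of all genes. Over both genotypes the counts were again 1 and 1, beside 5.13% and 14.1%. With each library centred, the calls over all genes in MRP8-Bcl2 turned from 311 higher and 2567 lower to 1636 higher and 467 lower. The groups did not overlap for 2 members that were higher (St3gal1 and St3gal6) and 1 that was lower (St3gal2) in WT, beside 14.9% and 7.97% of all genes. In MRP8-Bcl2 they did not overlap for St3gal6, which was higher, and St3gal2, which was lower, beside 5.18% and 32.6%. The median change of the 9 members was 0.98 in WT and 0.16 in MRP8-Bcl2, beside 0.22 and -1.02 for all tested genes.

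Shares within the family do not depend on the scaling of a library. St3gal6 took 0.642 to 28.9% of the summed TPM of the 10 members in BM WT and 56.3 to 60.5% in PT WT. In the transgenic groups it took 3.81 to 10.4% of marrow RNA and 60.5 to 71.9% of peritoneal RNA. St3gal5, the GM3 synthase that starts the ganglioside series by capping lactosylceramide, took 34.1 to 75.5% in BM WT and 10.3 to 14.0% in PT WT. Its shares with the transgene were 16.5 to 68.7% in marrow and 4.59 to 10.7% in the peritoneum. The share of St3gal2 was 1.56 to 8.60% in marrow libraries and 0 to 0.345% in peritoneal ones. The ratio of St3gal6 to St3gal5 was 0.00849 to 0.849 in the 6 marrow libraries and 4.03 to 14.6 in the 6 peritoneal ones. Peritoneal RNA of this family was thus mostly St3gal6, and St3gal5 led in the marrow libraries except library 3, where St3gal1 led with 37.0%.

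**Figure D3:**
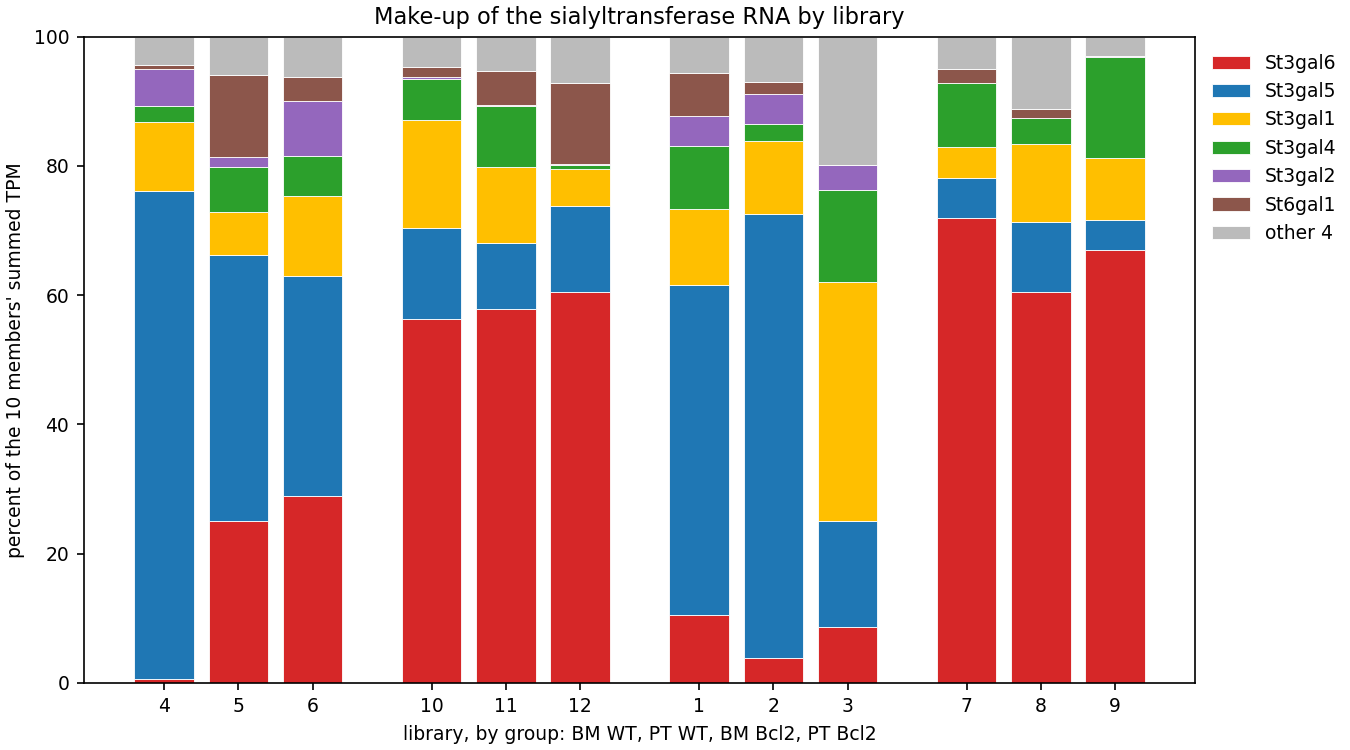
Percent of the summed TPM of the 10 members taken by each of 6 members and by the other 4 together, in each library (bars, 3 per group). St3gal6 takes 56.3 to 71.9% in the 6 peritoneal libraries and at most 28.9% in the marrow libraries.

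The order of the levels shows the same. In BM WT, St3gal5 was first at 134 ± 83.0 TPM (SD, n = 3), followed by St3gal6 at 41.6 ± 36.1 TPM and St3gal1 at 24.3 ± 6.50 TPM, and every neighbour in the order overlapped the next by library. In PT WT, St3gal6 led at 406 ± 259 TPM and did not overlap St3gal5, the next at 88.2 ± 58.2 TPM. In BM Bcl2, St3gal5 (105 ± 76.4 TPM) overlapped St3gal1 (33.4 ± 7.85 TPM), which lay above St3gal4 in every library. In PT Bcl2, St3gal6 at 326 ± 196 TPM stood clear of St3gal4 at 50.0 ± 34.2 TPM. St3gal3 and St6galnac4 held the last places or shared them with St3gal2 in each group.

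St3gal1 caps the Gal-GalNAc core of mucin type O-glycans, the common form on leukosialin of blood cells. Its level was 31.7, 19.5 and 21.7 TPM in BM WT and 80.5, 49.6 and 66.9 TPM in PT WT, with no overlap. In BM Bcl2 it was 31.1, 26.9 and 42.1 TPM and in PT Bcl2 36.2, 32.3 and 39.2 TPM, which overlap. The change was 1.40 in WT (SE 0.51, limma adjusted p = 0.165) and 0.12 in MRP8-Bcl2 (SE 0.51, adjusted p = 0.88), and neither passed. With each library centred, it was 1.71 in MRP8-Bcl2 (adjusted p = 0.039) and 1.45 over both genotypes (adjusted p = 0.015), and both passed. The centred median of all tested genes in MRP8-Bcl2 was 0.57. With quantile normalization St3gal1 was called over both genotypes but not in MRP8-Bcl2. The difference between the genotypes was -1.28 (95% interval -2.80 to 0.25, adjusted p = 0.362), and it was 0.53 with centring.

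St3gal4, the partner of St3gal6 on GlcNAc chains, spread widely in the peritoneum. Its levels were 7.12, 19.9 and 10.8 TPM in BM WT and 30.3, 39.4 and 6.52 TPM in PT WT, then 25.5, 6.27 and 16.2 TPM in BM Bcl2 and 74.8, 10.9 and 64.2 TPM in PT Bcl2. 4 of the 6 peritoneal libraries lay above every marrow library, while libraries 12 and 8 lay within the marrow range. The change was 0.75 in WT and 1.39 in MRP8-Bcl2 (SE 0.86 each, limma adjusted p = 0.72 and 0.254). Only centring brought a call, in MRP8-Bcl2.

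St3gal5 lay at 224, 119 and 59.8 TPM in BM WT and at 66.9, 43.6 and 154 TPM in PT WT. In BM Bcl2 it lay at 134.5, 163 and 18.7 TPM and in PT Bcl2 at 46.3, 28.6 and 18.7 TPM. The groups overlapped in both genotypes, and the changes of -0.60 and -1.33 (SE 0.80, limma adjusted p = 0.763 and 0.239) did not pass. With centring the Bcl2 value was 0.26. St3gal3, which caps galactose on N-glycans, was above 0 in 4 libraries. These were library 4 (1.17 TPM), library 12 (0.511 TPM), library 1 (0.352 TPM) and library 3 (6.53 TPM), and it was listed at 0 in all 3 PT Bcl2 libraries.

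St6gal1 adds sialic acid in the other linkage to the galactose of N-glycans, makes the ligand of CD22 and is abundant in B cells. It lay at 1.76, 36.8 and 6.57 TPM in BM WT and 7.16, 21.8 and 145 TPM in PT WT, then at 17.5, 4.58 and 0 TPM in BM Bcl2 and 16.3, 3.57 and 0.208 TPM in PT Bcl2. The highest value was library 12, whose B cell genes (1432 TPM) and mast cell genes (628 TPM) were also the highest of the 12. Within the other groups the highest St6gal1 was likewise in the library with the highest B cell sum: library 5 (268 TPM), library 1 (245 TPM) and library 7 (843 TPM). Below the top library the order matched in BM WT only. In PT WT, library 10 (B cell sum 767 TPM) had 7.16 TPM of St6gal1 and library 11 (637 TPM) had 21.8 TPM. In BM Bcl2, library 3 (97.1 TPM) had 0 TPM and library 2 (32.9 TPM) had 4.58 TPM. In PT Bcl2, library 9 (611 TPM) had 0.208 TPM and library 8 (239 TPM) had 3.57 TPM. The part of B cell RNA in St6gal1 was not tested. The change was 1.70 in WT (SE 1.34, limma adjusted p = 0.573) and -0.04 in MRP8-Bcl2 (SE 1.34, adjusted p = 0.989).

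St8sia4 builds polysialic acid, a long chain of sialic acids, on a few carriers such as NCAM and neuropilin-2. It lay at 5.35, 14.0 and 10.2 TPM in BM WT and 13.4, 14.9 and 82.9 TPM in PT WT, where library 12 again stood above the rest. In BM Bcl2 it lay at 8.12, 5.10 and 13.5 TPM, and in PT Bcl2 at 9.37, 9.26 and 9.63 TPM, the smallest SD (0.193 TPM) of the tested members in that group. The change was 1.39 in WT (SE 0.75, limma adjusted p = 0.368), or 0.57 without library 12, and 0.16 in MRP8-Bcl2.

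The ST6GalNAc members were low and uneven. St6galnac6, which works on gangliosides, lay at 6.64, 0 and 0.343 TPM in BM WT, against 8.01, 7.71 and 0 TPM in PT WT. It was at 4.36, 11.4 and 2.59 TPM in BM Bcl2 and 27.5, 20.8 and 0 TPM in PT Bcl2, so each peritoneal group held 1 library at 0 and 2 above 7 TPM. St6galnac4, which adds a second sialic acid to capped O-glycans, was above 0 in 7 of 12 libraries and reached at most 2.95 TPM. Neither was called in any comparison.

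Between genotypes, limma called no member. MRP8-Bcl2 against WT gave 0 of 9 members called in marrow and 0 in the peritoneum, and 0 had an unadjusted p under 0.05 in either. Of the 13456 tested genes, 991 had an unadjusted p under 0.05 in marrow and 1709 in the peritoneum. Of all tested genes, 0.0149% were called higher and 0.00743% lower in marrow, and 0.0297% lower in the peritoneum. The largest value was St6gal1 in the peritoneum, at -2.72 (95% interval -5.57 to 0.13, adjusted p = 0.415). There library 12 was the highest of PT WT (145 TPM) and library 9 the lowest of PT Bcl2 (0.208 TPM). The test of whether the peritoneal change differed between genotypes gave 0 members and 0.0149% of all genes. At an unadjusted p under 0.05 it again gave 0 members, beside 2279 of the 13456 genes. For St3gal6 that difference was 0.30 (95% interval -2.67 to 3.26), which leaves room for a difference of several fold either way.

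St3gal6 lies across from Dcbld2, a gene on the opposite strand, and shares 25.2% of its stretches of 31 bases with it. The stated kits do not mark strand, so reads in the overlap cannot be told apart. Dcbld2 lay at 34.0, 51.4 and 47.6 TPM in BM WT, against 166, 108 and 196 TPM in PT WT. In BM Bcl2 it was at 39.2, 54.0 and 39.4 TPM and in PT Bcl2 at 91.2, 98.7 and 49.3 TPM. Its change was 1.78 in WT (limma adjusted p = 0.0745), 0.79 in MRP8-Bcl2 (adjusted p = 0.265) and 1.29 over both genotypes (adjusted p = 0.0209, a call). Every peritoneal library but library 9 had more Dcbld2 (91.2 to 196 TPM) than any marrow library (at most 54.0 TPM). In library 9 Dcbld2 was lower than in 2 marrow libraries while St3gal6 was at 273 TPM. St3gal4 shares 4.41% with the antisense gene 4930581F22Rik, which was called higher in WT by 3.23 (adjusted p = 0.0247) and with the transgene by 2.05 (adjusted p = 0.04995), at 14.0 to 168 TPM in marrow and 227 to 669 TPM in the peritoneum. How much either overlap adds was not tested.

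**Figure D4:**
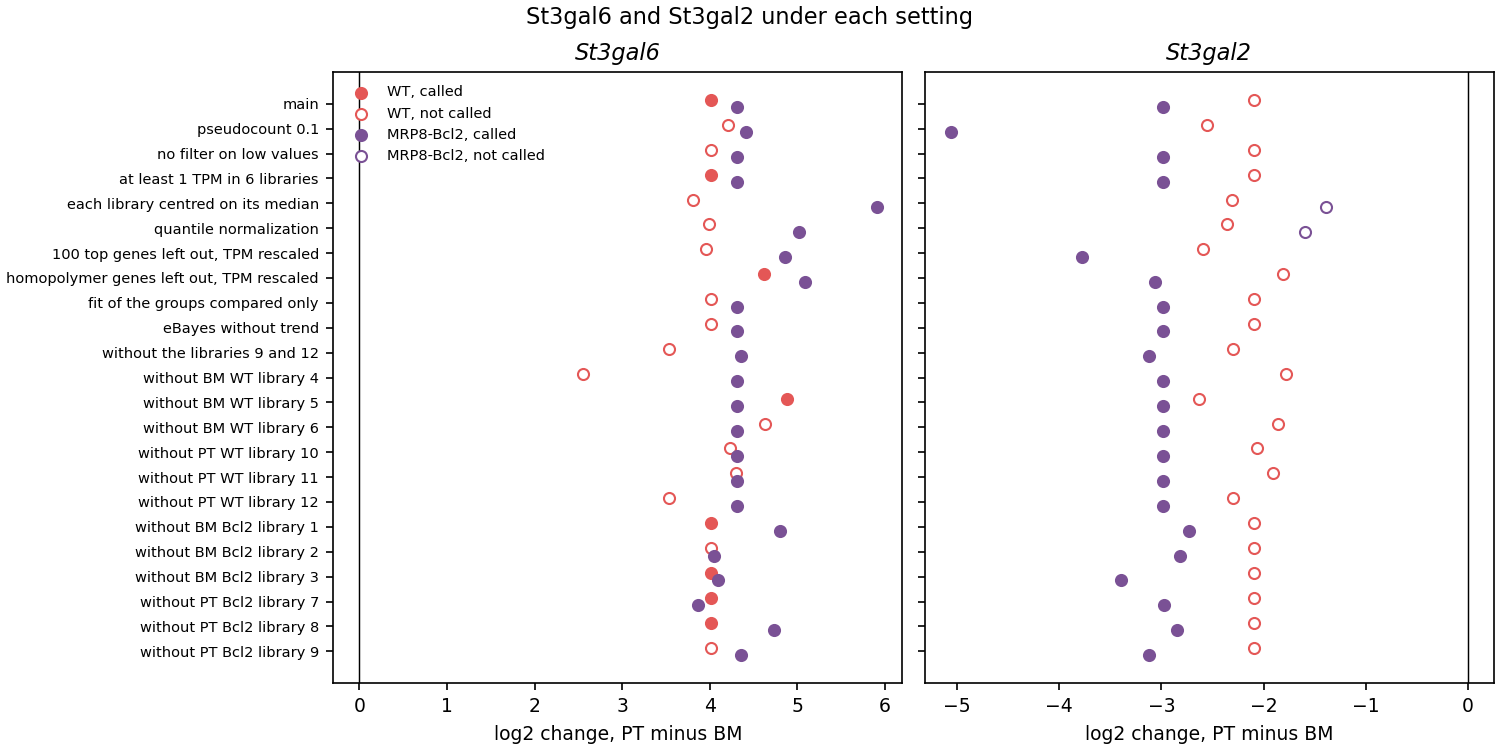
Change of St3gal6 and St3gal2 on the log2 scale, peritoneum minus marrow, under each processing setting and without each library (rows), in WT and MRP8-Bcl2; filled points passed the threshold. St3gal6 stays between 2.55 and 5.90 and is called in MRP8-Bcl2 under every setting shown, and St3gal2 loses its MRP8-Bcl2 call with centring (-1.39) and quantile normalization (-1.60).

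Of the other 10 sialyltransferases of the mouse, 5 passed the filter (St6galnac1, St6galnac2, St6galnac5, St8sia1 and St8sia6), and limma called none in any comparison, with 1 of them at an unadjusted p under 0.05 in WT, 0 in MRP8-Bcl2 and 1 over both genotypes. Between genotypes, 0 were so in marrow and 2 in the peritoneum, and 1 was for the difference of the change. Of the 13456 tested genes, 2223 were so in WT, 5008 in MRP8-Bcl2 and 4665 over both genotypes. Between genotypes the counts of all genes were 991 in marrow, 1709 in the peritoneum and 2279 for the difference of the change. St8sia6, which extends O-glycans, had the highest mean (6.68 TPM) and reached 36.9 TPM in PT WT, and St8sia1, the GD3 synthase, was at 4.47 ± 2.35 TPM in BM WT and 1.37 ± 0.82 TPM in PT WT (SD, n = 3). St6galnac3 was above 0 only in the 3 PT WT libraries, at 0.385 to 7.13 TPM. St8sia2 and St8sia5 were listed at 0 throughout, while St6gal2 and St8sia3 stayed under 0.21 TPM.

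Donor supply and removal were read from lists of the pathway. Of 6 genes that make and carry CMP-sialic acid, 5 were tested. Slc35a1, the Golgi transporter of the donor, fell by 2.49 in MRP8-Bcl2 (SE 0.72, limma adjusted p = 0.0262), from 9.50 ± 3.71 to 0.831 ± 0.452 TPM (SD, n = 3). In WT it stood at 6.25 ± 4.76 and 6.57 ± 2.86 TPM. Cmah, which converts Neu5Ac to Neu5Gc, and Cmas, which makes the donor, were the most abundant (means of 68.9 and 27.7 TPM) and were not called. Of 7 genes of removal and breakdown, 5 were tested. The lysosomal sialidase Neu1 fell by 2.43 in MRP8-Bcl2 (SE 0.82, adjusted p = 0.0475) and Npl, which splits free sialic acid, fell by 4.13 (SE 1.13, adjusted p = 0.0202). Ctsa, the protective protein of Neu1, had the highest mean of the list at 78.3 TPM. Beside these, 19.1% of all tested genes were called lower in MRP8-Bcl2, and with centring or quantile normalization the MRP8-Bcl2 calls of Slc35a1, Neu1 and Npl were lost.

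Of 15 enzymes that build the acceptor chains, 13 were tested. 2 fell in MRP8-Bcl2, Mgat5, the branching enzyme of N-glycans (-2.97, SE 0.71, limma adjusted p = 0.0111), and C1galt1c1, the chaperone of the O-glycan galactosyltransferase (-3.78, SE 1.12, adjusted p = 0.0278), beside 19.1% of all tested genes called lower. B4galt4, a galactosyltransferase, was called lower over both genotypes together with Mgat5 and was listed at 0 in all 6 peritoneal libraries. None of these 3 was called with centring. Gcnt1 and B4galt5 had the highest means, 52.5 and 50.8 TPM, and were not called. The median change of the 13 was -1.49 in MRP8-Bcl2, beside -1.02 for all genes.

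Of the list of selectin ligands and adhesion genes, Cd44, at 351 ± 128 TPM in BM WT and 1085 ± 570.2 TPM in PT WT (SD, n = 3), rose by 1.46 over both genotypes (SE 0.35, limma adjusted p = 0.0101), and the call held with centring and quantile normalization. Selplg, the carrier of P-selectin ligand, had a mean of 126 TPM with no call on the deposited scale. In MRP8-Bcl2 it was called higher with centring (3.49, limma adjusted p = 0.0204) but not with quantile normalization. Ugcg, which makes glucosylceramide, and B4galnt1, the GM2 synthase, led the list of ganglioside genes at 121 and 54.9 TPM and were not called. Of the 4 polysialic acid carriers, Ncam1 fell by 4.84 in MRP8-Bcl2 (SE 0.97, adjusted p = 0.00486), also with both scalings, and Ccr7 averaged 10.8 TPM.

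Of 9 siglecs, the receptors that bind sialic acid, 7 were tested. Cd33 rose by 2.07 in MRP8-Bcl2 (SE 0.66, limma adjusted p = 0.0387), from 205 to 726 TPM on average, and by 1.53 over both genotypes. Both calls held with centring. With quantile normalization the MRP8-Bcl2 call held (limma adjusted p = 0.0491), but the call over both genotypes was lost (adjusted p = 0.0508). Of all tested genes, 2.31% were called higher in MRP8-Bcl2 and 5.13% over both genotypes. Siglecf rose by 1.81 over both genotypes (SE 0.52, adjusted p = 0.0246), at 1.16 to 4.23 TPM in marrow and 5.05 to 20.01 TPM in the peritoneum. Eosinophil genes, of which Siglecf is 1, summed to 1.63 to 9.63 TPM in marrow and 5.84 to 34.9 TPM in the peritoneum, with Epx at 0 throughout, and their part was not tested. Siglece averaged 211 TPM with no call on the deposited scale. With centring it was called higher in MRP8-Bcl2 (2.80, limma adjusted p = 0.0222), but not with quantile normalization. In WT alone, limma called none of the genes on these 7 lists, beside 1.59% of all tested genes called higher and 1.22% lower. An unadjusted p under 0.05 was found for 4 of the list genes, beside 2223 of the 13456 tested genes.

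Over the 12 libraries, the genes most like St3gal6 in log2(TPM + 1) were Gcnt2 (Pearson r = 0.986), Btg1 (0.982) and Clec4d (0.978). Those most like St3gal5 were the gene listed only as ENSMUSG00000008686 (0.882), Akr1b10 (0.872) and Cpa6 (0.871), and those most like St3gal1 were Krt26 (0.924), Dusp11 (0.904) and Lysmd1 (0.893). The 12 points share the split between marrow and peritoneum, so these are descriptions of a common pattern.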

How the data were processed

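RNA of sorted cells was amplified (NuGEN Ovation V2), made into NEBNext Ultra libraries and sequenced as read pairs on an Illumina instrument. The authors ran AltAnalyze at default values and deposited log2(TPM + 1) per gene and library. They also deposited the mean TPM of each group, in TPM units, which was used to check that columns matched groups, and a transcript table of which the length column gave transcript lengths. The genome build and tool versions are not given in the sources used here. 3 columns of values that no label ties to a sample were not used, and the authors' own comparison and marker tables (correlations, z-scores and gene counts) were not used. Columns carried the group but not the replicate, so libraries are named by the numbers 1 to 12.

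Values were turned back to TPM for description. limma 3.58.1 (R 4.3.3; lmFit, contrasts.fit, eBayes with trend) was fitted as described in the results, and tested on simulated data. The members and lists were chosen with earlier results of these data known. Genes named are the 10 members, the other 10 of the family, list genes called anywhere and the 2 of highest mean TPM per list, the 3 most like each of the 3 highest members, and Bcl2. Some genes that this rule names are not reported here. Gene positions and overlaps came from GENCODE M21, and Siglecf and other symbols absent from the table were matched by Ensembl identifier. 27458 identifiers had a GENCODE record. Depth was read from the steps of low values of 9693 genes with 1 transcript (79.6 to 87.3% within 0.15 of a whole read, against 30% if even), and it limits low genes: 1 read on the longest transcript was worth 0.0495 to 0.678 TPM among the 10 members. These figures cover counting error only.

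Alternatives were a pseudocount of 0.1, no filter, a filter of 6 libraries, median centring, quantile normalization, leaving out the 100 highest genes, a fit of the groups compared, eBayes without trend and each library left out. Removal of the 76 genes whose transcripts hold a homopolymer of 31 or more A or T bases (8.91 to 65.6% of TPM) and leaving out libraries 9 and 12 together were added after seeing the data. The share of the 76 genes was 8.91 to 24.1% in the marrow libraries. In peritoneal libraries 10, 11, 8 and 9 it was 50.7, 54.1, 60.2 and 65.6%. Libraries 12 and 7 held 19.8 and 15.4%. Without the 76 genes, the median change of all tested genes was -0.55 in MRP8-Bcl2 and 0.64 in WT. St3gal1 and St3gal6 were then called higher and St3gal2 lower over both genotypes.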

Additional observations from a re-analysis of the deposited data

How the results depend on the processing

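No paired analysis was possible because the columns carry no replicate number and tie no library to a mouse, although by the methods of the study both sites were sampled in every animal. The count of members called in WT was 1 and went to 0 with a pseudocount of 0.1, no filter on low values, centring, quantile normalization, the 100 top genes left out, a fit of only the groups compared, eBayes without trend, and the libraries 9 and 12 left out. It ran from 0 to 1 over the fits without 1 library. In the last-named fit, chosen after seeing the data, St3gal6 stood at 3.54 in WT (adjusted p = 0.173). The count in MRP8-Bcl2 was 2 and went to 1 with quantile normalization. The 3 members called there with centring (St3gal1, St3gal4 and St3gal6) shared only St3gal6 with those called on the deposited scale (St3gal6 and St3gal2). No member was called between genotypes, or for a difference of the change between them, under any setting. Signs turned for members that were not called: in MRP8-Bcl2, St6gal1 went from -0.04 to 0.39 (pseudocount), 1.55 (centring), 0.85 (quantile), 0.26 (top genes left out), 0.39 (homopolymer genes left out) and 0.92 (libraries 9 and 12 left out), St6galnac6 from 0.46 to -0.42 (pseudocount) and St3gal5 from -1.33 to 0.26 (centring). The difference between genotypes turned for St3gal2 to 0.92 (centring) and 0.76 (quantile) and for St3gal1 to 0.53 (centring). Library 9, which lacks the Bcl2 level of its group, changed no call in MRP8-Bcl2 when left out. Over the fits without 1 library the sign also turned for changes near 0: St6galnac4 in WT (-0.65 to 0.0069) and over both genotypes (-0.12 to 0.30), and in MRP8-Bcl2 St6gal1 (-1.15 to 0.95), St8sia4 (-0.14 to 0.48), St6galnac6 (-0.41 to 2.01) and St3gal1 (-0.014 to 0.30), as did the difference between genotypes of St3gal6 (-0.56 to 1.77). The cause of these changes was not tested.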
